A study of Homo sapiens with 4 samples.

Results

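ATP-binding cassette (ABC) proteins of subfamilies A to G were followed after exposure to DZNep in MOLM-14, an established cell line of acute myeloid leukemia. A member was any gene whose probe set carried exactly 1 symbol made of ABC, a letter from A to G and a number, and 43 of 18377 genes measured met this rule. They comprised 12 ABCA, 8 ABCB, 11 ABCC, 3 ABCD, 1 ABCE, 3 ABCF and 5 ABCG genes. Among the ABCC genes, ABCC13 is annotated as a transcribed pseudogene, and it is counted as a member throughout. The rule for members uses names and no measured value, but it was set with earlier results of these data known. Each gene was read from its probe set with the highest mean over the arrays. The groups were 2 samples given DMSO, a solvent, as control and 2 given DZNep at 2 µM, each for 24 h in medium with serum and each read on 1 whole-transcript array. The labels name no other agent. They call the replicates biological without naming separate cultures, so p-values reflect how far these particular samples differ, possibly for technical reasons alone. DZNep (3-deazaneplanocin A) is an adenosine analogue that blocks S-adenosylhomocysteine hydrolase and thereby slows methyltransferases, among them the histone methyltransferase EZH2.

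ABC proteins spend ATP to move substrates across membranes. The ABCA and ABCG subfamilies mostly carry sterols and phospholipids, and ABCA1 hands cholesterol and phospholipid of macrophages to lipid-poor apolipoprotein A-I. The ABCB and ABCC subfamilies hold the best-known drug exporters, P-glycoprotein (ABCB1) and the multidrug resistance proteins, which can lower drug levels in leukemia cells. ABCD proteins serve peroxisomes and lysosomes, while ABCE1 and the ABCF proteins have no membrane part and act on ribosomes.

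ABCA9 and ABCA6, adjacent genes on chromosome 17, rose the most of the 43 members, and ABCA1 rose less. Their RefSeq start windows (GRCh38.p14, 250 bases before to 50 after the start, transcript strand) are shown with those of ABCA10 and ABCA5, the next members on the chromosome. ABCA10 has more than 1 start in the table, and its outermost is shown. ABCA8, on the other side of ABCA9, has no window there. The windows are shown so that those of the genes that rose can be read beside those of uncalled neighbours. Capitals mark matches, on either strand, to a GGGCGG (Sp1) box, a CCAAT box, a TATAAA box, a CACGTG E-box, an AP-1 site (TGANTCA) or, in ABCA1, a loose form of the liver X receptor (LXR) element.

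ABCA9, chr17:69060878-69061177, minus strand: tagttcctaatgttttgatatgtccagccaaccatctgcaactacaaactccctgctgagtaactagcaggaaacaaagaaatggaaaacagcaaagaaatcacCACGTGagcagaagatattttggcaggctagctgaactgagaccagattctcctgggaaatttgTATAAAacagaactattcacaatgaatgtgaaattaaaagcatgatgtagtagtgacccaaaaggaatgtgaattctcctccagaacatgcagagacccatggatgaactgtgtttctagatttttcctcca

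ABCA6, chr17:69141846-69142145, minus strand: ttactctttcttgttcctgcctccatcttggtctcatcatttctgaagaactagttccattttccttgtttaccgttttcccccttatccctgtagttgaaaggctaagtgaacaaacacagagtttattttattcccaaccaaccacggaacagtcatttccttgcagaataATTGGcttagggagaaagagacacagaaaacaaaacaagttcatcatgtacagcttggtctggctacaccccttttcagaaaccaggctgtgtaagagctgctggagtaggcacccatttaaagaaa

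ABCA10, chr17:69244799-69245098, minus strand: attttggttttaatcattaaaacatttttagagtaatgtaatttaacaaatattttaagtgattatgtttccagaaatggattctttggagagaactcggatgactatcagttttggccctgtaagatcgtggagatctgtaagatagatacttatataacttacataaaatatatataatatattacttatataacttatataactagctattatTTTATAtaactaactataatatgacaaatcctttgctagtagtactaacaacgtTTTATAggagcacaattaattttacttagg

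ABCA5, chr17:69327084-69327383, minus strand: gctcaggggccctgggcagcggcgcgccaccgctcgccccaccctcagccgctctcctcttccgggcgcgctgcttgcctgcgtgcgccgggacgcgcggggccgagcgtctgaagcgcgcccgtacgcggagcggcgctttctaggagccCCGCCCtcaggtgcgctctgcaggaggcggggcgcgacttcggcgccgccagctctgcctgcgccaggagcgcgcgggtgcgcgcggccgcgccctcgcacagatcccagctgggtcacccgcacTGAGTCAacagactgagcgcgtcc

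ABCA1, chr9:104928106-104928405, minus strand: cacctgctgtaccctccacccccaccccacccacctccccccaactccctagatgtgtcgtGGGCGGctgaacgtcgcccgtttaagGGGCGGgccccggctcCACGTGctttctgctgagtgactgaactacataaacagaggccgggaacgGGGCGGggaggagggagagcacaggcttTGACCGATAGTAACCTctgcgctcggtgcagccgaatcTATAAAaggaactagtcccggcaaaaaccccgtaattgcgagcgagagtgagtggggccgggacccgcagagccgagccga

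The ABCA9 and ABCA6 windows were alike in composition, and that of ABCA1 was richer in G and C. The ABCA9 window held 39.7% G and C and 1 CpG, and that of ABCA6 held 41.7% and 2 CpGs. The ABCA10 window held 3 CpGs. The ABCA1 window held 62.7% and 23 CpGs, and that of ABCA5, whose transcript did not pass the test, 76.3% and 45 CpGs. Across the 34 members with a window in the table, taking the outermost start, the median was 61.2% G and C and 18 CpGs. It was 58.7% and 14 CpGs over all 35116 windows of all genes. At most 5 CpGs were found in 11 of the 34 windows and in 11824 of the 35116. Uncalled ABCA13, ABCB1 and ABCC2 were among those 11. ABCA9 and ABCA1 each had an E-box, found in 7.26% of all windows, at bases −146 and −147 from the start. An E-box was also in windows of uncalled members, 8 of the 34 member genes in all (17.6% of their 51 windows), among them ABCB6, ABCB9, ABCC10, ABCF1 and ABCG2. The strict LXR element, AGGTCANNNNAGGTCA, was in none of the 51 member windows and in 7 windows of all genes. A looser form chosen after seeing the sequences, AGGTNANNNNNGGTCA, matched the ABCA1 window and 0.094% of all windows. A match of this kind is a description of letters, and binding was not measured.

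At a threshold of 0.05 on the limma adjusted p, 3 of the 43 members rose under DZNep and 1 fell, all of them ABCA genes. Over all genes 3.62% were called higher and 6.68% lower, 10.3% in either direction. An unadjusted p under 0.05 was found for 9 of the 43 members and for 22.2% of all genes. The median log2 difference (DZNep minus DMSO) was 0.02 over the members and 0.02 over all genes. The members' median was −0.023 when DMSO replicate 1 was left out and 0.075 when DMSO replicate 2 was, and the median of all genes was −0.011 and 0.042 in the same settings. The DZNep arrays lay wholly above the DMSO arrays for 12 members and wholly below for 10, and the groups overlapped for 21. Over all genes, 25.9% were separated upward and 23.9% downward, 49.7% in either direction.

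ABCA9, a transporter of the ABCA6-like group that is known to be induced as monocytes become macrophages, had log2 intensities of 5.63 and 5.77 with DMSO and of 7.66 and 7.41 with DZNep. Both DZNep arrays were far above both DMSO arrays. It rose 3.56-fold, with group means of 5.70 ± 0.10 and 7.53 ± 0.17 (SD, n = 2 each), a log2 difference of 1.83 (limma, SE 0.11, adjusted p = 4.89e-05). Every array holds RNA of a whole culture, so a rise in all cells and a rise in some of the cells cannot be told apart.

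ABCA6, a likely lipid transporter of the same group, read 6.21 and 5.99 with DMSO and 7.55 and 7.51 with DZNep. The groups did not overlap, and the DZNep arrays were near-equal. It rose 2.69-fold, from 6.10 ± 0.15 to 7.53 ± 0.03, a log2 difference of 1.43 (limma, SE 0.11, adjusted p = 0.0001). ABCA9 and ABCA6 passed the test in every alternative in which they were tested. Their differences ranged from 1.71 to 2.23 and from 1.32 to 1.68, each largest with 16 subtracted from every intensity. Both were among the genes removed when the dimmest 50% of genes were left out, so that setting gives no value for them.

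The other genes of the cluster did not pass. ABCA8, which lies next to ABCA9, read 5.02 and 5.09 with DMSO and 5.24 and 5.48 with DZNep, a log2 difference of 0.30 (limma adjusted p = 0.136). ABCA10, next to ABCA6, averaged 4.98 ± 0.03 with DMSO and read 5.20 and 5.26 with DZNep, a difference of 0.25 (limma adjusted p = 0.138), which passed with 16 subtracted from every intensity (0.47, adjusted p = 0.045). For both genes the DZNep arrays were the higher ones without overlap, and the 95% limma intervals, unadjusted for the number of genes, were 0.05 to 0.54 and 0.04 to 0.47. ABCA5, at the end of the cluster, read 6.15 and 5.92 with DMSO and 5.88 and 6.04 with DZNep. Its groups overlapped, with a difference of −0.08 (95% interval −0.33 to 0.18) that turned to 0.038 without DMSO replicate 1 and to 0.0045 without DZNep replicate 1. The ABCA6-like genes are close relatives, and whether probes of one also bind transcripts of another was not tested.

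**Figure D1:**
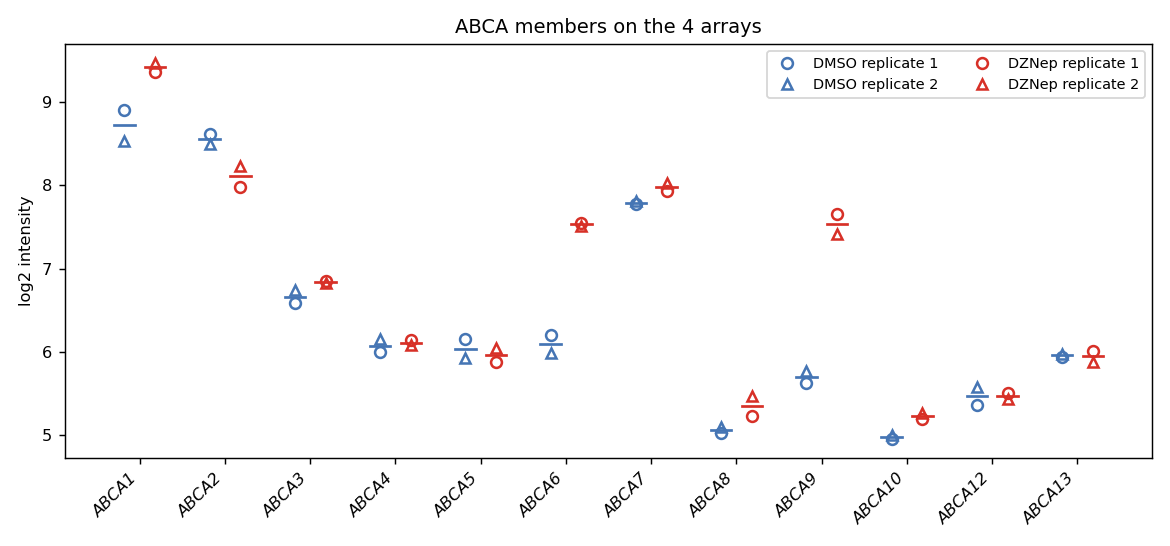
Log2 intensity (vertical axis) of the 12 ABCA members on each of the 4 arrays, with circles and triangles for replicates 1 and 2 and bars for the group mean. The DZNep arrays of ABCA9 and ABCA6 sit between 7.41 and 7.66, with the DMSO arrays between 5.63 and 6.21, and levels of different genes are not to be compared.

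No measured neighbour of the cluster was called higher, beside 3.62% of all genes, a share at which none is an ordinary count for so few genes. The 5 measured genes on either side of the cluster, in RefSeq order, were read as a description. WIPI1, an autophagy protein on the side of ABCA8, was the 1 gene called among them, beside 10.3% of all genes, and it was lower. Its log2 intensities were 8.87 and 8.45 with DMSO and 8.11 and 8.19 with DZNep, without overlap. The difference was −0.51 (limma, SE 0.14, adjusted p = 0.0449), and the call ended without DMSO replicate 1 (−0.30, adjusted p = 0.109), without DZNep replicate 1 (−0.47, 0.0775) or with 16 subtracted from every intensity (0.0917). The other 9 neighbours had differences between −0.11 and 0.26. Elsewhere, the adjacent pairs ABCG5 and ABCG8, ABCC11 and ABCC12, and ABCB1 and ABCB4 held no called gene, beside 10.3% of all genes. So few genes cannot be told from that share.

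**Figure D2:**
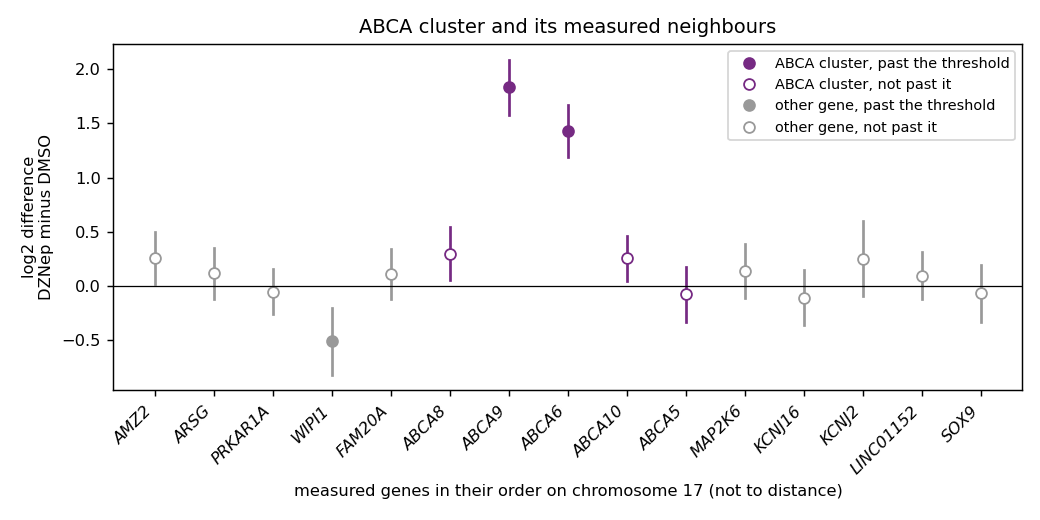
Log2 difference, DZNep minus DMSO, with its 95% limma interval (vertical axis) for the 5 ABCA cluster genes and 5 measured genes on either side, in chromosome 17 order without regard to distance. ABCA9 and ABCA6 stand at 1.83 and 1.43, and every other gene shown has a difference between −0.51 and 0.30.

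ABCA1, the cholesterol exporter that LXR induces, read 8.90 and 8.53 with DMSO and 9.36 and 9.47 with DZNep. Both DZNep arrays were higher than both DMSO arrays, which themselves lay well apart. It rose 1.62-fold, with group means of 8.72 ± 0.26 and 9.41 ± 0.08, a log2 difference of 0.70 (limma, SE 0.13, adjusted p = 0.0092). The call held in every alternative run, and its size ranged from 0.51 (DMSO replicate 2 left out) to 0.88 (DMSO replicate 1 left out).

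ABCA2, a transporter of endosomes and lysosomes, was the member that fell. It read 8.62 and 8.50 with DMSO and 7.98 and 8.23 with DZNep, and the groups did not overlap. The fall was 1.37-fold, from 8.56 ± 0.08 to 8.11 ± 0.18, a log2 difference of −0.45 (limma, SE 0.11, adjusted p = 0.0343). The call ended without DMSO replicate 1 (−0.39, adjusted p = 0.116), without DZNep replicate 1 (−0.33, 0.368), with 16 subtracted from every intensity (−0.47, 0.0748) and when every probe set was tested.

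The remaining ABCA members did not pass. ABCA7, a phospholipid transporter of myeloid cells and brain, had a difference of 0.19 (limma adjusted p = 0.303), and ABCA3, which loads surfactant lipid in lung, one of 0.18 (adjusted p = 0.357). Both had DZNep arrays above the DMSO arrays. ABCA7 read 7.77 and 7.81 with DMSO and 7.93 and 8.02 with DZNep, and ABCA3 read 6.58 and 6.74 with DMSO and 6.85 and 6.83 with DZNep. Together with ABCA1, ABCA6, ABCA8, ABCA9 and ABCA10 this made 7 of 12 ABCA genes with that separation, against 25.9% of all genes.

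No ABCG gene passed limma's test, and 0 of 5 had an unadjusted p under 0.05, beside 10.3% and 22.2% of all genes. ABCG1, which passes cholesterol to high-density lipoprotein and is an LXR target like ABCA1, read 6.58 and 6.62 with DMSO and 6.57 and 6.39 with DZNep. The DZNep arrays were the lower ones by a small margin, and the difference of −0.12 (95% interval −0.35 to 0.11) had a limma adjusted p of 0.596. ABCG2, a drug exporter within this lipid subfamily, read 5.32 and 5.57 with DMSO and 5.33 and 5.34 with DZNep, with overlap. Its difference was −0.11 (95% interval −0.35 to 0.14), and it turned to 0.02 without DMSO replicate 2. The 5 ABCG genes ranged from −0.12 to 0.06.

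None of the 19 ABCB and ABCC members passed limma's test, and 1, ABCB10, had an unadjusted p under 0.05, beside 10.3% and 22.2% of all genes. ABCB1, P-glycoprotein, read 5.26 and 5.55 with DMSO and 5.41 and 5.37 with DZNep, with the DZNep arrays between the DMSO arrays. Its difference was −0.01 with a 95% interval of −0.27 to 0.25, and it turned to 0.14 without DMSO replicate 2 and to 0.0088 without DZNep replicate 2. ABCC1, multidrug resistance protein 1, read 8.10 and 7.84 with DMSO and 7.99 and 8.22 with DZNep. The groups overlapped, and the difference was 0.14 (95% interval −0.14 to 0.42, limma adjusted p = 0.603). These intervals leave room for modest changes in either direction, and a missed threshold does not show equal levels. ABCC11, an exporter of organic anions, read 6.36 and 6.50 with DMSO and 6.55 and 6.53 with DZNep, a difference of 0.11 (limma adjusted p = 0.625) with the DZNep arrays just above the others. Over the 9 drug and organic anion exporters measured, ABCG2 included, differences lay between −0.11 and 0.14, and no 95% bound lay beyond −0.35 or 0.42.

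Larger differences in the ABCB subfamily belonged to genes that are not mainly drug exporters. ABCB4, which moves phosphatidylcholine into bile in liver, read 7.24 and 6.72 with DMSO and 6.54 and 6.73 with DZNep. The groups overlapped, and the DMSO mean of 6.98 had an SD of 0.37. The difference of −0.34 (limma adjusted p = 0.248) became −0.61 with DMSO replicate 2 left out (adjusted p = 0.0198) and −0.08 with DMSO replicate 1 left out (0.727).

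ABCB10, a transporter of the inner mitochondrial membrane linked to heme synthesis, read 9.60 and 9.61 with DMSO and 9.34 and 9.27 with DZNep. The groups did not overlap and replicates were close. Its difference of −0.30 had a limma adjusted p of 0.0819, short of the threshold. It passed with an intensity trend (0.0231), a robust trend (0.0254) or the dimmest 50% of genes left out (0.0332). The related mitochondrial genes ABCB6 and ABCB8 had overlapping groups. The 3 probe sets of ABCB8 gave −0.11, −0.09 and 0.08, so its sign depends on the probe set. The 3 probe sets of ABCF1, by contrast, gave 0.07 each.

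**Figure D3:**
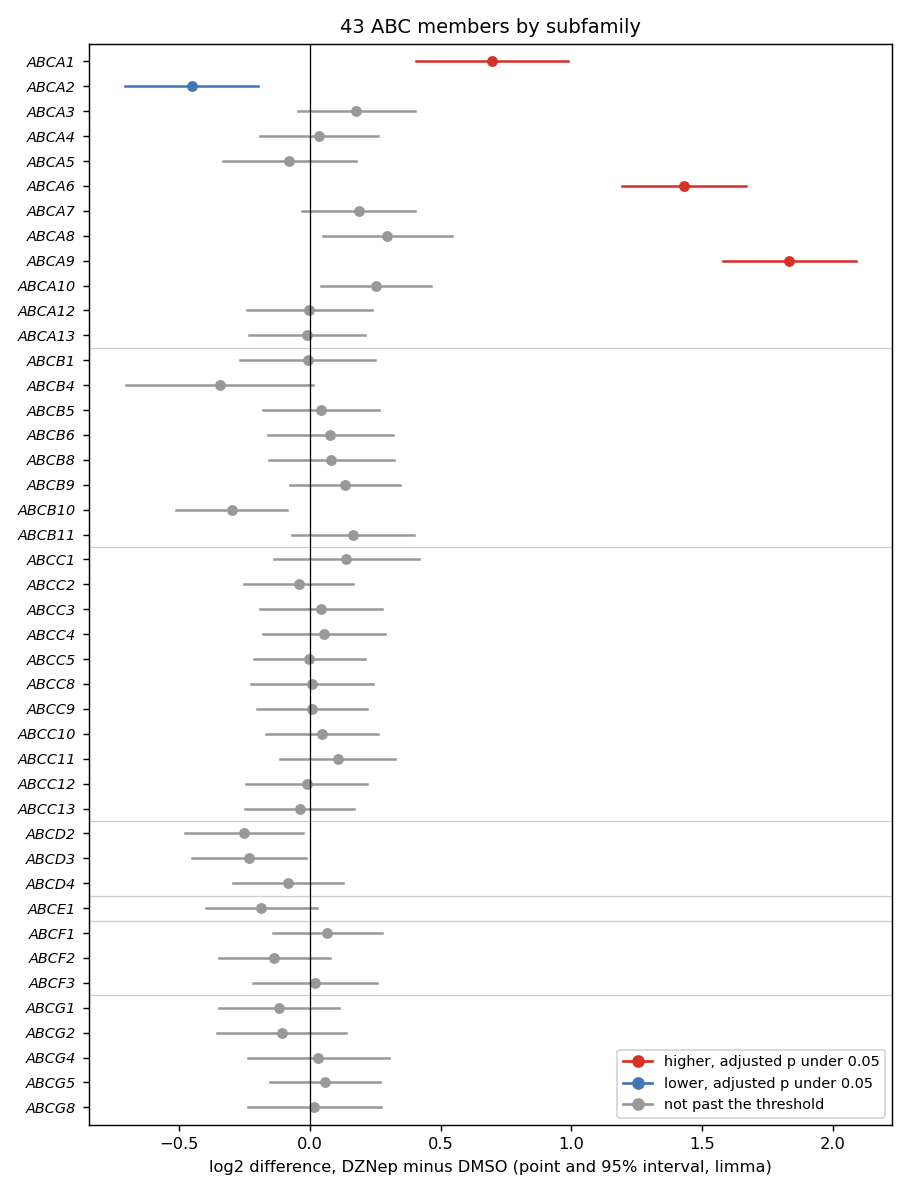
Log2 difference, DZNep minus DMSO (horizontal axis), with 95% limma intervals not adjusted for the number of genes, for all 43 members grouped by subfamily. The intervals of ABCA9, ABCA6 and ABCA1 lie above 0.40, and the intervals of most other members cross 0.

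By subfamily letter, ABCA and ABCG genes and ABCB and ABCC genes had like medians and unlike extremes. The median log2 difference was 0.04 over the 17 ABCA and ABCG genes and 0.04 over the 19 ABCB and ABCC genes, a gap of −0.0084. The means were 0.25 and 0.01, and without the 5 cluster genes the ABCA and ABCG mean was 0.04. Of the 17 genes 3 rose and 1 fell, and of the 19 none was called, beside 3.62% and 6.68% of all genes. The median absolute difference was 0.12 and 0.05, and 0.11 over all genes. The gap between the medians was not stable in sign. It was 0.13 without the dimmest 25% or 50% of genes, 0.026 with probe sets of a gene averaged, 0.048 without DMSO replicate 1, 0.078 without DMSO replicate 2, 0.0077 without DZNep replicate 1 and 0.045 without DZNep replicate 2. With members sorted by transported substrate in place of letter it was 0.0029. The filters on dim genes used the mean over all 4 arrays. ABCA9 and ABCA6, with DMSO means of 5.70 and 6.10, passed the 25% filter only through their DZNep arrays. The gap under that filter thus draws on their rise. The 50% filter left 15 members, without ABCA9 and ABCA6.

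On each array, relative to every gene's own mean, the median of ABCA and ABCG genes minus that of ABCB and ABCC genes was −0.07 and −0.01 with DMSO and 0.04 and 0.02 with DZNep. It was higher on both DZNep arrays than on both DMSO arrays, while the gap between the median differences was just below 0. The genes share arrays and are not replicates, so neither gap was tested.

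**Figure D4:**
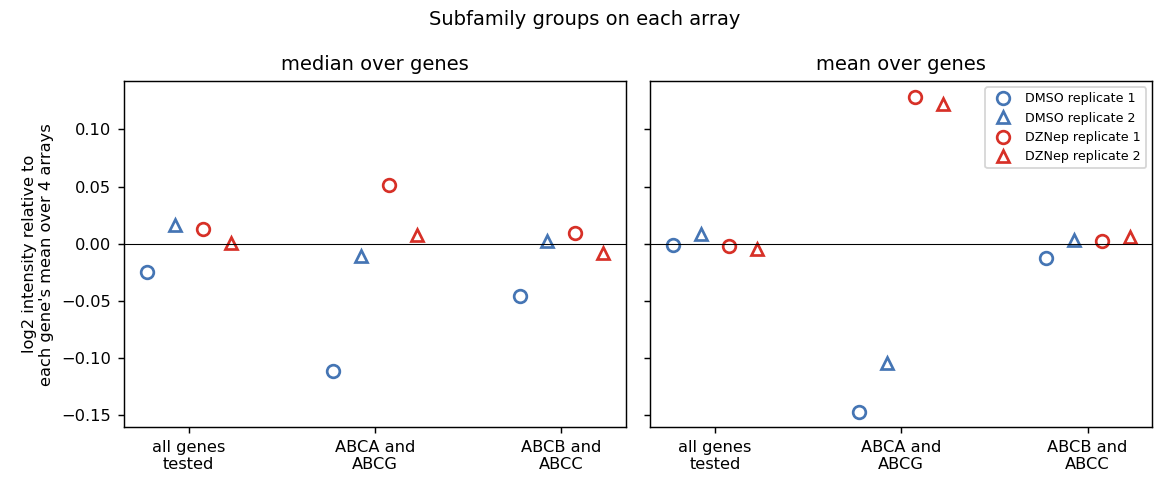
Log2 intensity relative to each gene's mean over the 4 arrays (vertical axis), as the median (left) and the mean (right) over all genes, 17 ABCA and ABCG genes and 19 ABCB and ABCC genes, with 1 point per array. The mean of ABCA and ABCG genes is −0.15 and −0.10 with DMSO and 0.13 and 0.12 with DZNep, while that of ABCB and ABCC genes lies between −0.01 and 0.01.

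The 3 ABCD genes and ABCE1 read lower on both DZNep arrays and none passed limma's test, with 2 unadjusted p-values under 0.05 (ABCD2 and ABCD3). Over all genes 23.9% were separated downward, 10.3% were called and 22.2% had an unadjusted p under 0.05. ABCD2, a peroxisomal importer of very long chain fatty acids, read 8.17 and 8.03 with DMSO and 7.81 and 7.90 with DZNep. ABCD3, its relative for branched and other fatty acids, read 10.07 and 10.13 with DMSO and 9.92 and 9.82 with DZNep. Neither gene's groups overlapped, and the differences were −0.25 and −0.23 (limma adjusted p = 0.17 and 0.195). ABCE1, which splits ribosomes after translation ends, read 10.00 and 9.92 with DMSO and 9.77 on both DZNep arrays, a difference of −0.19 (limma adjusted p = 0.299). ABCD4, a lysosomal protein of vitamin B12 handling, had a difference of −0.08 (adjusted p = 0.701). The translation factor ABCF2 read 8.67 and 8.61 with DMSO and 8.52 and 8.49 with DZNep, a difference of −0.14 (adjusted p = 0.48). ABCF1, its relative, read 9.93 and 9.95 with DMSO and 10.02 and 10.00 with DZNep, a difference of 0.07 in the other direction, also short of the threshold.

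Family genes known by other symbols lay outside the rule. TAP1, a subunit of the pump that loads peptides for MHC class I, read 9.05 and 8.86 with DMSO and 9.39 and 9.46 with DZNep. It rose by 0.47 (limma adjusted p = 0.0211), and the call ended without DZNep replicate 1 (0.50, adjusted p = 0.0519), without DZNep replicate 2 (0.44, 0.122) and with 16 subtracted (0.0538). Its partner TAP2 had a difference of −0.07 and the chloride channel CFTR one of 0.01, neither past the threshold.

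Of the genes of sterol efflux and LXR signalling, 20 were measured, with a median log2 difference of 0.03. Of these 1 rose and 1 fell, beside 3.62% and 6.68% of all genes. SMPDL3A, a phosphodiesterase that LXR induces in macrophages, rose by 0.44 (limma adjusted p = 0.0193), a call that ended without DZNep replicate 1 (0.48, adjusted p = 0.074) or DZNep replicate 2 (0.39, 0.201). SOAT1, which esterifies cholesterol for storage, fell by 0.45 (limma adjusted p = 0.0187), a call that ended without DZNep replicate 1 (−0.39, adjusted p = 0.206).

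Of 20 other lipid flippases and scramblases, 1 rose and 2 fell, beside 3.62% and 6.68% of all genes, with a median of −0.03. The scramblase ANO6 fell by 0.52 (limma adjusted p = 0.0101), a call that ended without DZNep replicate 1 (−0.50, adjusted p = 0.0558). ATP9A, a P4-type ATPase of endosomes, rose by 0.50 (limma adjusted p = 0.0126), a call that ended without DZNep replicate 2 (0.43, adjusted p = 0.128). MFSD2A, a lysophospholipid carrier, fell by 0.37 (limma adjusted p = 0.0384). Its call ended without DMSO replicate 2 (−0.32, adjusted p = 0.0643) or either DZNep array (−0.37 and −0.37, 0.243 and 0.267), under quantile normalization (0.0534) and with 16 subtracted (0.0818).

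Among 22 xenobiotic receptor and conjugation genes, 1 rose and 2 fell, beside 3.62% and 6.68% of all genes, with a median of −0.06. CYP1B1, a monooxygenase of xenobiotics and steroids, read 7.98 and 7.61 with DMSO and 9.12 and 9.19 with DZNep, without overlap. It rose 2.57-fold (limma, log2 difference 1.36, SE 0.13, adjusted p = 0.000323) and passed in all alternatives run. HIF1A, the hypoxia-inducible factor, fell by 0.44 (limma adjusted p = 0.0336), a call that ended without DMSO replicate 1 (−0.31, adjusted p = 0.0858) or either DZNep array (−0.44 and −0.43, 0.122 and 0.125) and with 16 subtracted (0.078). MGST2, a microsomal glutathione transferase, fell by 0.36 (limma adjusted p = 0.0412). Its call ended without DMSO replicate 1 (−0.32, adjusted p = 0.0845) or either DZNep array (−0.37 and −0.36, 0.251 and 0.291), under quantile normalization (0.0532) and with 16 subtracted (0.0892).

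Of 9 nucleoside uptake and phosphorylation genes 2 fell and none rose, beside 6.68% and 3.62% of all genes, with a median of −0.16. SLC29A1, the equilibrative nucleoside transporter ENT1, read 9.21 and 9.28 with DMSO and 8.74 and 8.82 with DZNep, without overlap. It fell by 0.47 (limma adjusted p = 0.0141), a call that ended without DZNep replicate 1 (−0.43, adjusted p = 0.132). SLC28A3, a concentrative nucleoside transporter, fell by 0.41 (limma adjusted p = 0.0278), a call that ended without DMSO replicate 2 (−0.35, adjusted p = 0.0533) or either DZNep array (−0.39 and −0.43, 0.2 and 0.128).

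Partners of the mitochondrial, peroxisomal and ribosomal members were read in the same way. Of 16 iron-sulfur and heme synthesis genes 1 rose and 3 fell, beside 3.62% and 6.68% of all genes, with a median of 0.01. The heme enzymes FECH and UROS fell by 0.79 and 0.79 and the mitochondrial chaperone HSPA9 fell by 0.77 (limma adjusted p = 0.0031, 0.0019 and 0.0032), and these calls held in all alternatives run. UROD, an earlier heme enzyme, rose by 0.43 (limma adjusted p = 0.0183), a call that ended without either DZNep array (0.43 and 0.43, 0.127 and 0.139).

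Of 15 peroxisome genes 1 rose and none fell, beside 3.62% and 6.68% of all genes, and the median was −0.02. The gene that rose was the thiolase ACAA1, by 0.36 (limma adjusted p = 0.0449). Its call ended when any 1 array was left out (0.30 to 0.41), under median centring (adjusted p = 0.0837) and with 16 subtracted (0.0856). None of 10 ribosome recycling and termination genes passed limma's test and 1 had an unadjusted p under 0.05, beside 10.3% and 22.2% of all genes. The median was −0.0028. The 2 largest differences were −0.33 for EIF2D, a ribosome recycling factor, and −0.20 for its relative MCTS1. EIF2D passed without DMSO replicate 2 (−0.46, limma adjusted p = 0.0317) and with an intensity trend (0.048).

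Myeloid markers were read to check the labelled cell type. LYZ, lysozyme of monocytes, was bright on every array, at 12.15 and 12.32 with DMSO and 12.82 and 12.72 with DZNep. Of 11 measured, 2 rose and 1 fell, beside 3.62% and 6.68% of all genes. Their summed linear intensity was 13887 and 13776 with DMSO and 14918 and 14641 with DZNep. Such a sum is set mostly by the brightest genes. Its rise rests on LYZ, so it does not describe the markers as a set. LYZ rose by 0.53 (limma adjusted p = 0.0114) and the macrophage growth factor receptor CSF1R by 0.47 (0.0128), calls that ended without DZNep replicate 1 (0.48 and 0.46, adjusted p = 0.0706 and 0.094) and, for CSF1R, without DZNep replicate 2 (0.47, 0.0769). The receptor kinase FLT3 fell by 0.94 (limma adjusted p = 0.000535). The DZNep arrays lay wholly above the DMSO arrays for 7 of the 11 markers and wholly below for 3. Over all genes these shares were 25.9% and 23.9%. Those below were FLT3 and, short of the threshold, the integrin genes ITGAM and ITGAX (−0.22 each). MPO, at −0.15, had overlapping groups. The part of these markers in the rises of ABCA9, ABCA6 and ABCA1 was not tested. No measured marker of T cells (3), B cells (2), erythroid cells (2), epithelium (4) or fibroblasts and endothelium (5) passed limma's test. An unadjusted p under 0.05 was found for 1 epithelial marker, where 10.3% of all genes were called and 22.2% had such a p. That test compares the groups and cannot show whether a cell type is present. Some of these markers, among them KRT18 (8.93 with DMSO) and KLF1 (7.99), read above the array medians of 6.99 to 7.07. In the order given, the summed intensities over the 4 arrays were 185 to 208, 205 to 231, 288 to 363, 805 to 896 and 551 to 625.

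With 2 arrays a group, their number sets the precision. The limma SE of a gene draws on 2 residual degrees of freedom of its own and 7.18 from the spread of all genes. The SEs and p-values thus rest more on all genes than on the replicates of the gene itself. The deposited intensities run from 18.1 to 16502, with array medians of 6.99 to 7.07 on the log2 scale, and 14 of the 43 members lie in the dimmest 25% of genes. The values carry no detection calls, so a dim member such as ABCB1, ABCA8 or ABCA10 cannot be separated from background here. The same holds for ABCA9 and ABCA6 with DMSO, at means of 5.70 and 6.10. Their folds compare intensities and may not be ratios of transcript abundance. The SD of the log2 difference between replicates was 0.18 with DMSO and 0.12 with DZNep over the 43 members, and 0.20 and 0.14 over all genes.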

How the data were processed

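RNA of MOLM-14 cells was extracted, labelled with biotin as sense target and hybridised to 4 whole-transcript arrays, per the labels' protocols. The deposited table gives 1 linear intensity per probe set and array, from RMA, which the authors ran per the submitters' processing notes, and no version or probe set level is given in the sources used here. There were 0 unused columns.

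Groups and replicate numbers come from the titles. Log2 of the intensity was taken without a pseudocount. Of 28869 probe sets, 19310 have 1 gene symbol in the platform annotation, 1752 several, and 7807 are not listed. Each of 18377 genes was read from its probe set with the highest mean, and no dim gene was removed. The fit was limma 3.58.1 in R 4.3.3 (lmFit, eBayes, group as the term, two-sided), adjusted by Benjamini-Hochberg over all genes, threshold 0.05. An exact permutation test of 2 arrays against 2 cannot go below 0.333. The fit was tested on simulated data. Lists and members were chosen with earlier results of these data known. ABC members could all be named. From each other list, up to 4 called genes, or the 2 largest differences where none was called, are named. TAP2, CFTR, the myeloid markers and the neighbour WIPI1 were added after their values were seen.

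Alternatives were a replicate block, intensity trends, quantile, cyclic loess and median-centring normalizations, filters on dim genes, array weights, the mean over probe sets, every probe set tested, 16 subtracted from each intensity, substrate in place of subfamily letter, and leaving out each array. Promoter windows come from RefSeq (GRCh38.p14). Some genes of the family and of the marker lists are not reported here.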

Additional observations from a re-analysis of the deposited data

How the results depend on the processing

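ABCA1, ABCA6 and ABCA9 passed in all alternatives in which they were tested. Without the dimmest 25% of genes, ABCA6 and ABCA9 stayed in only through their DZNep arrays, so that setting adds no support for them. Leaving out the dimmest 50% of genes left 15 members, without ABCA6 and ABCA9, of which 1 was higher and 2 lower. The count of lower members was 2 with an intensity trend, robust or not, and 0 with 16 subtracted or with every probe set tested. The gap between ABCA with ABCG and ABCB with ABCC medians was 0.13 without the dimmest 25% (0.131) or 50% (0.133) and 0.026 with the mean over probe sets. Leaving out 1 array gave 336 to 776 genes higher, 734 to 1662 lower, 3 members higher in each case, 0 to 2 members lower, a members' median of −0.023 to 0.075 and a gap of 0.0077 to 0.078. The members' median was −0.01 under cyclic loess, quantile and median-centring normalization.

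Among the genes whose differences were followed across the alternatives, signs turned for 5 that had not passed. Not all members were among those genes, so signs of other small differences may turn as well. With 1 array left out, ABCA5 ran from −0.192 to 0.038 (0.0045 without DZNep replicate 1), ABCB1 from −0.153 to 0.14 (0.0088 without DZNep replicate 2), ABCG2 from −0.234 to 0.020, TAP2 from −0.157 to 0.0068 and CFTR from −0.074 to 0.084. CFTR was −0.03 under cyclic loess (−0.0256), quantile (−0.0339) and median-centring (−0.0275) normalization and −0.06 without DMSO replicate 1. The cause was not tested.

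With the replicate number as a block, 754 genes were higher and 1353 lower, with 3 members higher, 1 lower, a members' median of 0.02 and a gap of −0.01. It ended the calls of MGST2 (adjusted p = 0.0531) and ACAA1 (0.0561) and no other call of a named gene. The replicate block was not taken as pairing, since deviations of same-numbered arrays correlated at −0.22 across genes. With the numbers crossed, an alternative added after seeing the data, the replicate block gave 1034 higher, 1690 lower, and 3 and 2 members, ABCB4 being added. A group with 1 array is assumed to vary like the other. Subtracting 16 is one guess at the floor near 18 of the deposited values, whose origin is unknown.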
